A study of Mus musculus with 3 samples.

Results

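The 10 genes described here encode heat shock proteins and their partners: the small heat shock proteins Hspb1 and Cryab, the HSP70 proteins Hspa1a, Hspa1b and Hspa8, the HSP40 cochaperone Dnajb1, the HSP110 protein Hsph1, the HSP90 protein Hsp90aa1, the HSP70-HSP90 adaptor Stip1, and Hspe1. They were chosen by name as 10 of the 20471 genes of the count table, but with earlier results of these data known. The product of Hspe1, the partner of the chaperonin Hspd1, works in the mitochondrion, so the name "cytosolic" holds for the other 9. The assay was DRUG-seq2, in which RNA is reverse transcribed with a barcode in each well, and the wells of a plate are then pooled and sequenced as 1 library. Wild-type mouse embryonic fibroblasts (MEF) were kept for 4 days in a medium labelled CFAE+8 with a compound in each compound well, on 3 plates. The study looked for compounds acting on cell reprogramming. The tests used 217 compound wells with 210 compounds, mostly 1 well each. A further 30 wells on plate 3 carried the name of a medium: MEF (4 wells), basal (3), bCFAE (3), bC8FAE (5), bC6FAE[2] (3), bC6FAE[10] (4), bCLFAE (4) and bCSFAE (4). The sources used here give neither the recipes behind these names nor the compound doses, and name no vehicle well; bC8FAE was taken from its name as the screening medium without a compound.

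Cytosolic heat shock proteins keep other proteins folded. HSP70 binds unfolded stretches with the help of HSP40 proteins, HSP110 releases its nucleotide, Stip1 passes clients from HSP70 to HSP90, and small heat shock proteins hold unfolded clients without using ATP. Many of these genes are induced by heat shock factor 1 (HSF1), which binds inverted repeats of nGAAn in their promoters; Hspa8 is mostly constitutive, while Hspa1a and Hspa1b are the strongly inducible HSP70 genes. In embryonic fibroblasts the same genes also respond to growth factors, serum and kinase signalling.

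Promoter bases were read for 7 of the 10 members from RefSeq (GRCm38.p6), as the 250 bases before each start. Those of 4 members that carry the minimal HSF1 pattern are shown, and that of Hspa1a, which also carries it, is left out as near-identical to Hspa1b. Capitals mark GAANNTTC or TTCNNGAA, each of which reads the same on both strands, and the 2 patterns may overlap by 3 bases.
Hspb1, chr5:135887669-135887918, plus strand: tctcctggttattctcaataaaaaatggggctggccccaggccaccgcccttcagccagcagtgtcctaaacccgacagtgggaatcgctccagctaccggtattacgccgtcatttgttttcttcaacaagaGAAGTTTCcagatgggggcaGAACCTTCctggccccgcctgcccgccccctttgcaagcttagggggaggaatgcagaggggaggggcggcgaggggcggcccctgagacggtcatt
Hspa1b, chr17:34959239-34959488, minus strand: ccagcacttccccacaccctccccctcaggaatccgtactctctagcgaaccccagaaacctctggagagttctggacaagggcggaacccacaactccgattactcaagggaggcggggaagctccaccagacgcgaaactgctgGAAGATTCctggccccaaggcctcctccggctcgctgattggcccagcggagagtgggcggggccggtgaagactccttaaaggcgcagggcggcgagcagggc
Hsph1, chr5:149636337-149636586, minus strand: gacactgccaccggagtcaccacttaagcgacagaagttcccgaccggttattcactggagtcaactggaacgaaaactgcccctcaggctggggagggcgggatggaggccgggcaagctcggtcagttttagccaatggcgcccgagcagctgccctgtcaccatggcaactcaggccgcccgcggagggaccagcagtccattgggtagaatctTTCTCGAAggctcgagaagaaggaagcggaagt
Hspe1, chr1:55087898-55088147, plus strand: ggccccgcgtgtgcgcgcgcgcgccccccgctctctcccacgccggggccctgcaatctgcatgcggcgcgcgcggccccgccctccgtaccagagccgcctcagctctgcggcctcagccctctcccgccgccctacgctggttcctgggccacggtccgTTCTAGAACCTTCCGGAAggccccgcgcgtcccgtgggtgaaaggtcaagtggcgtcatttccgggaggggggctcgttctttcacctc
Hspb1 held 2 GAANNTTC, beginning 117 and 97 bases before its start. Hspa1b and Hspa1a each held 1 GAANNTTC, 104 bases before the start, and their promoters matched at 247 of 250 positions. Hsph1 held 1 TTCNNGAA, 33 bases before the start shown, and Hspe1 held 3 overlapping matches, beginning 89, 84 and 79 bases before its start. Dnajb1 and Stip1 held neither pattern in this window. Of 32851 promoters of this length, 12.8% held at least 1 of the patterns (GAANNTTC in 6.69%, TTCNNGAA in 7.17%). A match is a description of letters, not a shown binding site.

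All 10 genes are protein coding. On mm10 (GENCODE vM21) Hspb1 lies at chr5:135887919-135889563, Cryab at chr9:50751325-50756636, Hspa1a at chr17:34969190-34972156, Hspa1b at chr17:34956436-34959238 and Hspa8 at chr9:40800984-40810087. Dnajb1 lies at chr8:83608193-83612653, Hsph1 at chr5:149614287-149636376, Hsp90aa1 at chr12:110690605-110702728, Stip1 at chr19:7020702-7039967 and Hspe1 at chr1:55088132-55091307. On the same strand, exons of Hspa8 overlap Snord14c, Snord14d and Snord14e. Exons of Cryab overlap Hspb2, those of Hspa1a overlap Gm20481 and those of Hspe1 overlap Hspd1, each on the opposite strand. The sources used here do not say whether counting used strand, so such reads cannot be told apart. Of all 50-base stretches in its longest transcript, Hspa8 shared 74.8% with other genes, and 90.2% of those in its last 500 bases. Only 1 of the 13 genes that share Hspa8 sequence was listed in the count table, with 106 counts over the screening wells against 3219 for Hspa8. Hspa1a and Hspa1b shared 66.3% and 62.3% of their stretches, but none in the last 500 bases, and Hspe1 shared 44.8% (53.2% in the last 500 bases). Hspb1 shared 51.7% (16.0% in the last 500 bases), mostly with Hsp25-ps1, and Hsp90aa1 58.5%, with none in the last 500 bases. How reads with several matches were counted is not given, so the levels of Hspa8, Hspe1, Hspb1, Hsp90aa1 and the Hspa1a/Hspa1b pair are uncertain.

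Depth was shallow. Median totals per well were 318877, 613609 and 433274 counts on plates 1, 2 and 3, with single wells between 45416 and 1206219. The 30 medium wells had 119295 to 726228 counts, so 10 CPM (a gene's counts times 1000000 over the total of the well) stood for about 1 to 7 counts. All 10 fibroblast markers (such as Col1a1, Col1a2 and Vim) were detected in every medium group, with sums of 5660 to 10357 CPM per well. In bulk wells, fewer cells of a type and less RNA per cell cannot be told apart. Wells are the only replicates, no label says that they came from separate cultures, and p-values measure only the spread between wells.

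Cryab, the small heat shock protein of lens and muscle, had the widest relative range over media among members with counts in every well. It measured 145.4, 119, 123 and 219 CPM in the MEF wells and 73.3, 41.1 and 101 CPM in basal. In bCFAE it measured 513, 577 and 591 CPM, with no overlap between bCFAE and basal. Levels were 472, 441, 435, 344 and 573 CPM in bC8FAE, and 652, 652 and 755 CPM in bC6FAE[2]. The highest values were those of bC6FAE[10], 743, 854, 823 and 966 CPM. The bCLFAE wells had 484, 354, 356 and 496 CPM and the bCSFAE wells 514, 425, 504 and 555 CPM, within the range of bC8FAE. Cryab was higher by 2.84 ± 0.22 (log2, SE; edgeR adjusted p = 2.2e-16) in bCFAE than in basal, by 1.52 ± 0.17 (adjusted p = 1.1e-10) in bC8FAE than in MEF, and by 0.64 ± 0.15 (adjusted p = 0.0011) in bC6FAE[10] than in bCFAE. A difference counted as called at an adjusted p under 0.05 over all genes tested. It was lower in basal than in MEF (-1.06 ± 0.26, adjusted p = 0.025); without basal well 1, basal well 2 or MEF well 4 the adjusted p was 0.10, 0.34 or 0.22. In order of mean level the media ran basal, MEF, bCLFAE, bC8FAE, bCSFAE, bCFAE, bC6FAE[2] and bC6FAE[10]; neighbours overlapped from bCLFAE to bCFAE and between both bC6FAE media.

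Hspb1, the widely expressed small heat shock protein, was lower in several media than in MEF or bCFAE. It measured 82.7, 54.0, 28.8 and 53.8 CPM in MEF, 62.0, 47.0 and 57.1 CPM in basal, and 39.1, 39.9 and 53.5 CPM in bCFAE. In bC8FAE it measured 11.9, 26.1, 17.7, 25.1 and 40.9 CPM, and in bC6FAE[2] 11.9, 20.0 and 18.4 CPM. The other 3 media lay between 23.2 and 41.2 CPM. Hspb1 was lower in bC8FAE than in MEF by 1.43 on the log2 scale (-1.43 ± 0.28, adjusted p = 3.7e-05), and lower in bC6FAE[2] than in bCFAE (-1.30 ± 0.34, adjusted p = 0.0075), where leaving out bC6FAE[2] well 1 gave an adjusted p of 0.11. Its difference between bC8FAE and bCFAE (-0.83 ± 0.28, adjusted p = 0.042) was lost in 9 of 12 alternatives, with adjusted p up to 0.22. Between bCFAE and basal it was -0.49 ± 0.27 (adjusted p = 0.16).

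**Figure D1:**
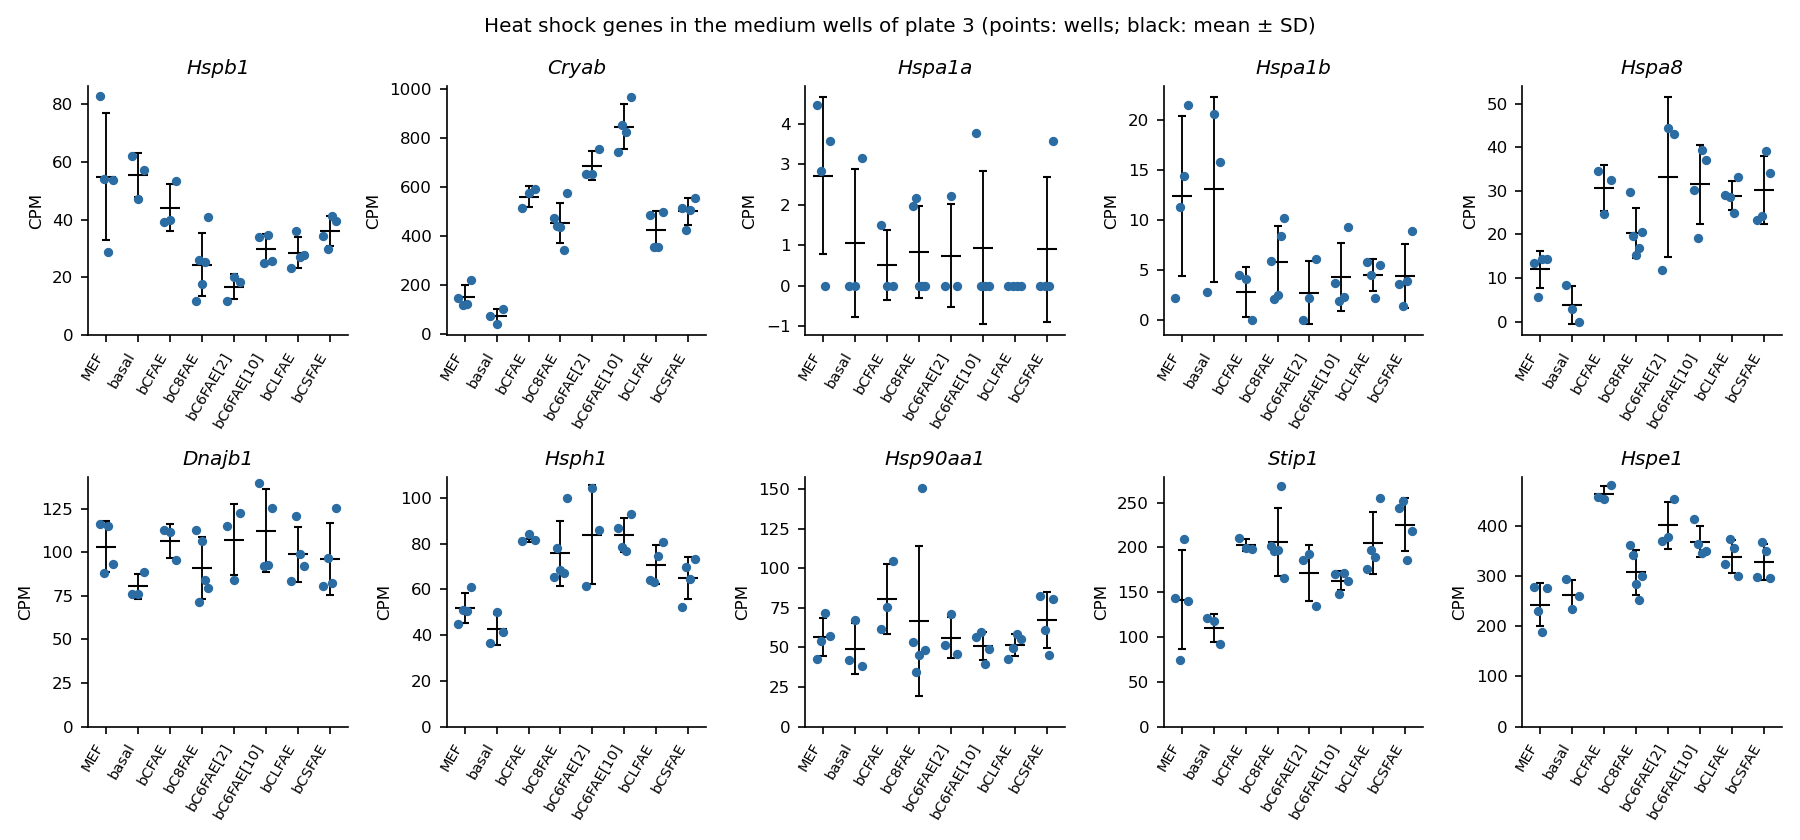
CPM of each of the 10 heat shock genes (y axis, own scale per gene) in the 30 medium wells of plate 3, by medium (x axis). Points are wells and black bars the mean ± SD; Cryab is lowest in basal (41.1 to 101 CPM) and highest in bC6FAE[10] (743 to 966 CPM), while Hspa1a stays at or below 4.47 CPM.

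The constitutive HSP70 Hspa8 had few counts in basal: 3, 1 and 0, or 8.46, 2.94 and 0 CPM. The bCFAE wells had 34.6, 24.8 and 32.6 CPM, all above the basal wells, and MEF had 13.4, 5.68, 14.4 and 14.3 CPM. It measured 29.6, 19.5, 15.2, 16.8 and 20.5 CPM in bC8FAE and 11.9, 44.4 and 43.0 CPM in bC6FAE[2], where it overlapped bCFAE. Hspa8 was higher in bCFAE than in basal by 2.73 ± 0.59 (log2; adjusted p = 0.00017). Over fits that left out single wells the difference ran from 2.21 without basal well 3 to 3.98 without basal well 1, called in each. The inducible genes sat near the detection limit: Hspa1a had 0 to 2 counts, with 20 of 30 wells at 0, and Hspa1b had 0 to 7. Neither passed the filter on low counts, so the media tests left both out. With no filter, their counts added together were lower in bCFAE than in basal (-1.80, adjusted p = 0.049), and the other 8 medium comparisons of this sum had adjusted p from 0.23 to 1. Hspa1b measured 2.24, 11.4, 14.4 and 21.5 CPM in MEF, 2.82, 20.6 and 15.9 CPM in basal, and 4.51, 4.13 and 0 CPM in bCFAE, values that overlap.

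The partners of HSP70 and HSP90 moved less. Hsph1 measured 36.6, 49.9 and 41.2 CPM in basal against 81.2, 84.0 and 81.4 CPM in bCFAE, a rise of 0.82 ± 0.23 (log2; adjusted p = 0.0042). Stip1 measured 121, 117 and 91.9 CPM in basal against 211, 200 and 198 CPM in bCFAE, a rise of 0.74 ± 0.19 (adjusted p = 0.0011). In neither gene did the groups overlap. Stip1 was also higher in bC8FAE than in MEF (0.51 ± 0.16, adjusted p = 0.012), a call that was lost without MEF well 2 (0.28, adjusted p = 0.20). Dnajb1 ranged from 71.7 to 140 CPM over all medium wells and passed the test in none of the 9 comparisons; its difference between bCFAE and basal was 0.29 ± 0.21. Hsp90aa1 ranged from 34.8 to 151 CPM, was likewise not called in any of the 9, and differed by 0.53 ± 0.27 between bCFAE and basal. Its highest value was in bC8FAE well 4, which also had the lowest total of the medium wells (119295 counts).

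Hspe1, whose product caps the Hspd1 chaperonin, was highest in bCFAE: 457, 453 and 482 CPM, against 293, 235 and 260 CPM in basal (0.69 ± 0.15, adjusted p = 0.00018). The bC8FAE wells had 362, 341, 283, 251 and 299 CPM, all below the bCFAE wells (-0.54 ± 0.13, adjusted p = 0.0019). The bCSFAE wells (298, 367, 349 and 296 CPM) and the bCLFAE wells (324, 374, 356 and 300 CPM) were also all below bCFAE. Hspe1 was lower than in bCFAE in bCSFAE (-0.51 ± 0.13, adjusted p = 0.0052) and bCLFAE (-0.44 ± 0.13, adjusted p = 0.023; lost when any of 5 single wells was left out, with adjusted p up to 0.11). Hspd1, the chaperonin gene next to it on the opposite strand, moved the same way: 1.06 in bCFAE over basal (adjusted p = 4.6e-06), and -0.59, -0.43 and -0.49 in bC8FAE, bCSFAE and bCLFAE over bCFAE (adjusted p = 0.0026, 0.040 and 0.018). It was also lower in bC6FAE[2] (-0.50, adjusted p = 0.034), where Hspe1 was -0.14 ± 0.14. The mitochondrial share of counts was 0.698% to 0.825% in bCFAE, and higher without overlap in bC8FAE (0.876% to 1.95%), bCSFAE (0.906% to 0.976%) and bCLFAE (0.874% to 0.933%); its part in the Hspe1 differences was not tested.

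Counted over all comparisons, 5 of the 8 members tested were higher in bCFAE than in basal, where 34.5% of 6985 genes were called in either direction; the median member was at 0.71 and the median gene at 0.01 (log2). Against bCFAE, the members called were 2 in bC8FAE (11.2% of genes called), 1 in bC6FAE[2] (with 8.52% of genes), 1 in bC6FAE[10] (with 13.7%), 1 in bCLFAE (with 6.44%) and 1 in bCSFAE (with 6%). Between bC8FAE and MEF 3 members were called, with 32.1% of genes, and between basal and MEF 1, with 0.644%. Between bC6FAE[10] and bC6FAE[2] (0.401% of genes called) edgeR called 0 of 8 members, DESeq2 also 0, and 1, Hspb1 (0.82 ± 0.36), had an unadjusted p under 0.05. The other 7 lay between -0.17 and 0.27. Members not called lay between -0.53 and -0.02 in bC8FAE over bCFAE, -0.38 and 0.37 in bC6FAE[2], -0.55 and 0.11 in bC6FAE[10], -0.59 and 0.03 in bCLFAE, and -0.35 and 0.14 in bCSFAE. They lay between -0.23 and 0.80 in bC8FAE over MEF and between -1.45 and 0.11 in basal over MEF. All comparisons with bCFAE share its 3 wells. With 8 members tested, the single calls in the bC6FAE, bCLFAE and bCSFAE comparisons and the 3 calls of bC8FAE over MEF are near the background and are no result about the members as a group. Nor are the 2 calls of bC8FAE over bCFAE, of which that of Hspb1 was lost in 9 of 12 alternatives. For the 5 calls of bCFAE over basal, whether the members differ as a group from other genes was not tested.

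Of 30 other cytosolic chaperone genes tested, 10 rose and 2 fell in bCFAE over basal, among them Hspa4 (1.48), an HSP110 relative, the chaperonin subunits Cct2 (1.02) and Cct7 (0.93), and the small heat shock protein Hspb6 (-1.76). These 12 of 30 are a share near the 34.5% of all genes called, and their median was 0.28 against 0.01 for all genes. Of 7 mitochondrial chaperones 3 rose: Hspd1, the protease Lonp1 (0.71) and the HSP70 Hspa9 (0.58). Of 14 endoplasmic reticulum (ER) chaperone and stress genes 7 fell, including Pdia4 (-1.04), Creld2 (-0.97), Hspa5 (-0.94) and Ddit3 (-0.91). Of 12 oxidative stress genes 6 rose and 2 fell; the cystine transporter Slc7a11 was at 0 in all basal wells and averaged 20.1 CPM in bCFAE, Srxn1 rose (1.21), and the metallothioneins Mt1 (-1.34) and Mt2 (-1.15) fell. In bC8FAE over bCFAE the counts were 5 lower of 30 cytosolic chaperones, led by Hspa14 (-1.41) and Bag2 (-0.53), also near the background of 11.2%. There 1 of 7 mitochondrial and 1 of 14 ER genes fell, and of 12 oxidative stress genes 1 rose and 5 fell. Macrophage markers summed to 193 to 339 CPM in MEF, 129 to 285 CPM in basal and 25.5 to 88.3 CPM in the other media, with Ptprc at 0 in all. Of 10 fibroblast markers 1 rose and 8 fell in bCFAE over basal, and 2 of 3 neural markers tested rose. The part of these markers in the differences above was not tested.

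Most compounds changed no heat shock gene past the test. The reference for a compound was every other screening well of the same plate (90, 86 and 46 screening wells on plates 1, 2 and 3). Of 1890 member tests (9 members and 210 compounds; Hspa1a had too few counts), 18 were called higher (0.952%) and 2 lower (0.106%), where over all genes 0.369% were called higher and 0.279% lower. At least 1 member was called with 10 of 210 compounds, and 161 compounds called no gene at all. Of 15 compounds with 100 or more genes called, 9 called a member and 6 did not (Erdafitinib, FIIN_2, LY3009120, GDC_0623, CCT196969 and CC_115). The 3 with the most member calls in 1 direction were NT157 (5 members), Trametinib (3) and LDC4297 (3).

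NT157, an inhibitor of insulin receptor substrates, was given on plate 2. Hspb1 measured 618 CPM with it (321 counts) against a plate median of 44.3, a rise of 3.69 ± 0.30 (log2; adjusted p = 1.3e-18). Hspa1b measured 53.9 CPM (28 counts) against 4.39 (3.48 ± 0.54, adjusted p = 1.4e-07), and Hsp90aa1 270 CPM against 54.9 (2.16 ± 0.36, adjusted p = 1.4e-06). In each of these genes the NT157 well was the highest or the second of 86 wells. Hsph1 measured 100 CPM against 54.5 (0.92 ± 0.29, adjusted p = 0.011) and Stip1 281 CPM against 164 (0.82 ± 0.24, adjusted p = 0.0052); adjusted over all compounds and genes of the plate, these became 0.27 and 0.16. Not called were Cryab (0.13 ± 0.34), Hspa8 (0.72 ± 0.55), Dnajb1 (0.23 ± 0.26) and Hspe1 (0.17 ± 0.34). The 5 calls of 9 members stood beside 15.2% of genes called higher with NT157. Other chaperones rose as well: 17 of 32 cytosolic genes, including Hspa4l (3.03), the ligase Stub1 (2.34), Hspb6 (1.94) and Bag1 (1.65), and 3 of 7 mitochondrial genes, led by Grpel1 (1.52). So did 10 of 14 ER genes, with Ddit3 (3.18), Dnajb9 (3.10), Pdia3 (2.21) and Hsp90b1 (1.96), and 7 of 12 oxidative stress genes, with Hmox1 (4.36), Gclm (4.27), Sqstm1 (3.10) and Prdx1 (2.88). Beside these stood a macrophage marker sum of 641 CPM (plate median 78.98; Ptprc at 0), a fibroblast marker sum of 3285 CPM (median 6903) and a mitochondrial share of counts of 1.91% (median 0.982%, rank 3 of 86 wells), whose part was not tested.

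LDC4297, a CDK7 inhibitor, was given on plate 3 and moved the 2 small heat shock genes in opposite directions. Hspb1 measured 362 CPM against a plate median of 25.5 (3.10 ± 0.57, adjusted p = 9.8e-05), while Cryab measured 79.9 CPM against 440, the lowest of 46 wells (-2.69 ± 0.43, adjusted p = 1.9e-05). Hsph1 rose to 230 CPM from 74.5 (1.36 ± 0.25, adjusted p = 9.2e-05), and Hsp90aa1 to 272 CPM from 63.9 (1.65 ± 0.48, adjusted p = 0.011, or 0.16 over the whole plate). Hspa1b was at 1.90 ± 0.72 (adjusted p = 0.052) and Dnajb1 at 0.62 ± 0.27 (adjusted p = 0.087). Hspa8 (0.50 ± 0.65), Stip1 (0.46 ± 0.22) and Hspe1 (0.35 ± 0.30) were not called either. The counts of Hspa1a and Hspa1b added together were called (1.87, adjusted p = 0.032). With LDC4297 9.35% of genes were called higher and 10.3% lower. Of 31 cytosolic chaperones 5 rose, led by Hspa4l (1.70), Bag2 (1.40), Bag1 (1.05) and St13 (0.95). The 1 that fell was Hsp90ab1 (-0.63), while the member Hsp90aa1 rose. Of 12 oxidative stress genes 2 rose (Gclm, 2.26, and Prdx1, 0.71) and 2 fell (Slc7a11, -2.80, and Mt1, -1.09), and 1 of 7 mitochondrial genes rose (Grpel1, 1.07). The fibroblast marker sum was 3292 CPM (median 6505), with 6 of 10 markers called lower, and the mitochondrial share was 1.89% (median 1.07%); their part was not tested.

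Trametinib, a MEK1/2 inhibitor, gave the highest Hspb1 value of any well on plate 1: 1699.8 CPM (424 counts) against a median of 36.2 (4.95 ± 0.39, adjusted p = 7.1e-20). Cryab measured 2113 CPM against 500 (1.78 ± 0.33, adjusted p = 3.7e-05), and Hspa1b 64.1 CPM (16 counts) against 3.36 (3.39 ± 0.76, adjusted p = 0.00070). Both small heat shock genes rose with Trametinib, while Hsp90aa1 (1.13 ± 0.61), Hsph1 (0.51 ± 0.43), Stip1 (0.18 ± 0.31), Hspa8 (-0.67 ± 0.92), Dnajb1 (-0.21 ± 0.38) and Hspe1 (-0.38 ± 0.31) were not called; 7.25% of genes were called higher. Of 30 cytosolic chaperones 1 rose (Hspb8, another small heat shock protein, 1.63) and 2 fell (Cdc37, -1.59, and Cct3, -1.04). Of 13 ER genes 1 rose (Manf, 1.12). Of 7 mitochondrial genes 1 fell (Clpp, -1.05), as did 1 of 12 oxidative stress genes (Mt1, -1.23). The epithelial marker sum was 593 CPM against a plate median of 26.3, from Krt8 and Krt18 with Epcam and Cdh1 at 0, and the fibroblast sum was 17139 CPM against 5669. Of 10 fibroblast markers 5 were higher (2.87 to 3.82) and 2 lower, Vim (-1.61) and Fn1 (-1.67). Of markers of other cell types Des (3.83, adjusted p = 2.4e-09) and Tubb3 (3.74, adjusted p = 2.0e-12) were higher and Nefl lower (-7.16, adjusted p = 0.0042). The part of these markers was not tested.

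**Figure D2:**
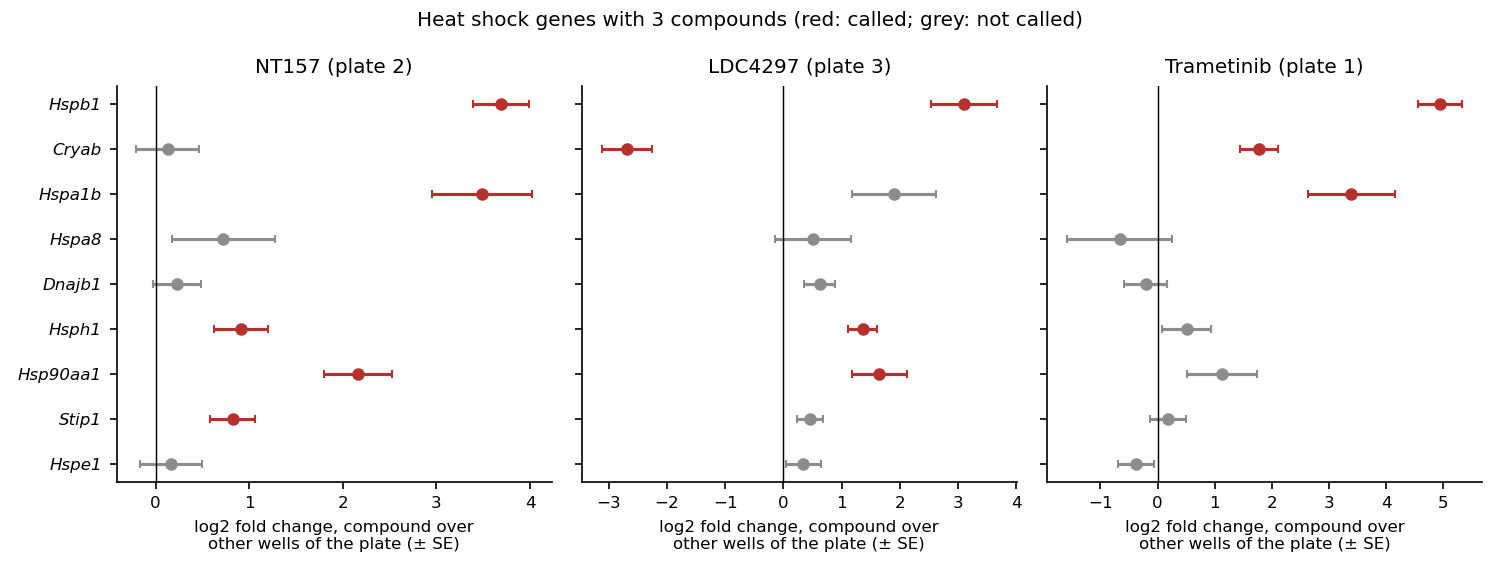
Log2 fold change ± SE (x axis, own scale per panel) of the 9 tested heat shock genes (y axis) with NT157, LDC4297 and Trametinib over the other wells of the plate; red points passed an adjusted p of 0.05. Hspb1 is higher with all 3, and Cryab is higher with Trametinib (1.78), lower with LDC4297 (-2.69) and not called with NT157.

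Hsp90aa1, the inducible cytosolic HSP90, was called with the most compounds. Besides NT157 and LDC4297, it rose with PF_04979064 (409 CPM, 66 counts; 2.29 ± 0.53, adjusted p = 0.0037) and BEZ235 (321 CPM; 2.16 ± 0.45, adjusted p = 0.00087), both PI3K/mTOR inhibitors. It also rose with Avitinib (379 CPM, 35 counts; 2.38 ± 0.54, adjusted p = 0.0037) and MCB_613 (1.71 ± 0.49, adjusted p = 0.029). The Avitinib well had 92437 counts, 15.1% of its plate's median. The mitochondrial share of counts was above the plate median in the wells of all 6 compounds (1.10% to 1.91%, medians 0.982% to 1.07%); its part was not tested. With THZ1, a covalent CDK7 inhibitor, Hspb1 measured 254 CPM (2.49 ± 0.67, adjusted p = 0.046). With BMS_3, Hspa8 measured 120 CPM against a median of 33.0 (1.48 ± 0.43, adjusted p = 0.045). Stip1 rose with APTO_253 (306 CPM; 0.89 ± 0.26, adjusted p = 0.036) and was lower with Avitinib at 4 counts (43.3 CPM; -2.13 ± 0.52, adjusted p = 0.0081). Each of these calls rests on 1 well. Their p-values were adjusted within the compound, and adjusted values over the whole plate are not given here. Dnajb1 and Hspe1 were called with 0 of 210 compounds by edgeR. Over all genes 0.369% of compound tests were called higher and 0.279% lower, so 0 is near the background. Their unadjusted p-values under 0.05 numbered 10 and 12 of 210, near the share that this cutoff gives by chance.

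**Figure D3:**
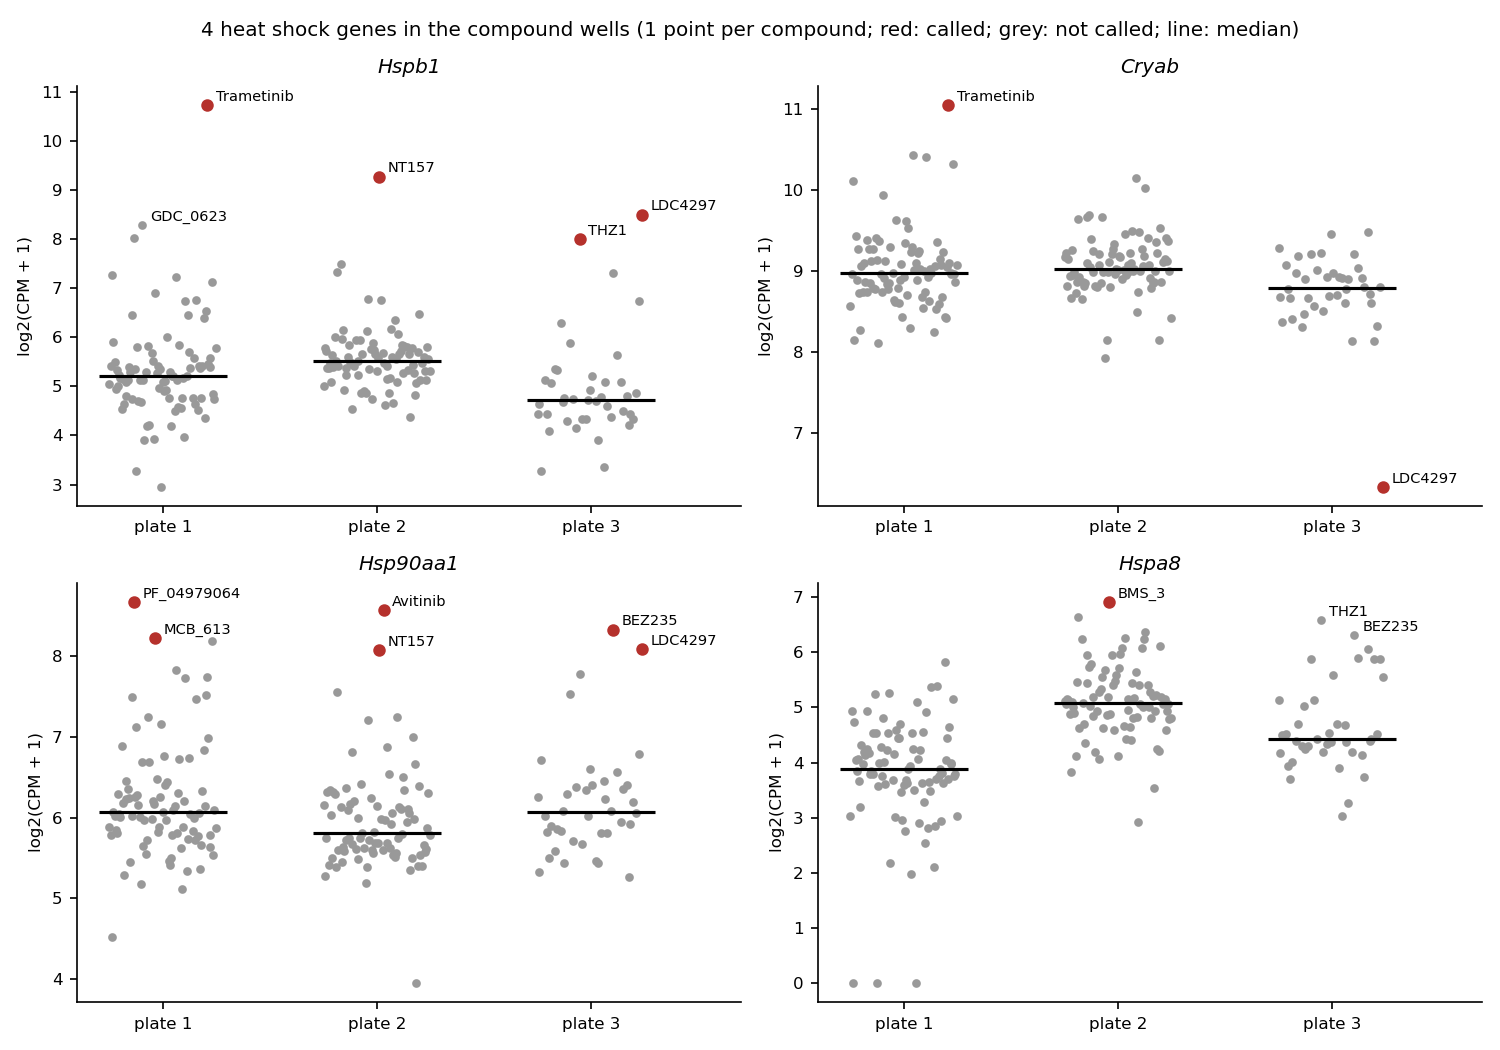
Log2(CPM + 1) of Hspb1, Cryab, Hsp90aa1 and Hspa8 (y axis) by plate (x axis), 1 point per compound; lines are medians, red points were called and names mark the called or highest wells. Hspb1 reaches 1699.8 CPM with Trametinib, Cryab falls to 79.9 CPM with LDC4297, and Hspa8 sits higher on plate 2 than on plate 1.

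The compounds at the ends of each gene's range were often not called; values here are per compound, with salt forms averaged. The Hspb1 minimum was 6.74 CPM with Hydroxyfasudil (1 count) on plate 1, 19.8 with LY2801653 on plate 2 and 8.68 with CX_4945 (2 counts) on plate 3. Cryab was lowest with SCIO_469 on plate 1 (275 CPM) and NVP_LCQ195 on plate 2 (243 CPM), and highest with MSC2530818 on plate 2 (1134 CPM) and MRT67307 on plate 3 (716 CPM). Hspa8 peaked with SGI_7079 on plate 1 (55.7 CPM) and THZ1 on plate 3 (95.2 CPM); its minima were 0 with 3 compounds of plate 1, 6.58 CPM with Doramapimod (1 count) and 7.20 CPM with LDK378 (3 counts).
Hsp90aa1 was lowest with Ro_5126766 (22.0 CPM, 1 count), IRAK_inhibitor_6 (14.4 CPM, 4 counts) and A_419259 (37.3 CPM).
Dnajb1 was narrow, from 36.8 CPM with SMI_16a to 166 with APTO_253 on plate 1, from 53.0 with DCC_2618 to 143 with BMS_3 on plate 2, and from 56.4 with CX_4945 to 168 with THZ1 on plate 3. Hsph1 ran from 26.3 CPM with BIX02188 to 120 with TAK_715 on plate 1 and down to 21.6 with Avitinib (2 counts) and 48.2 with LY3009120 on plates 2 and 3.
Stip1 was lowest with Ro_5126766 (66.1 CPM, 3 counts) on plate 1 and Cediranib (121 CPM) on plate 3, and highest with ONO_4059 (296 CPM) and HLM006474 (330 CPM) on plates 2 and 3. Hspe1 spanned 216 CPM with EMD638683 to 486 with Toceranib, 156 with AST_487 to 498 with Avitinib, and 190 with AT7867 to 439 with LDC4297. The highest Hspa1b values were with Trametinib, NT157 and, on plate 3, THZ1 (24.2 CPM, 14 counts), while 28, 11 and 6 compounds had 0 counts. Hspa1a peaked at 13.8 CPM with KX2_391 (4 counts), 5.82 with Acalabrutinib (4) and 7.88 with Rigosertib (3), and 57, 41 and 18 compounds had none.

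Compounds were also grouped into 27 target classes from general knowledge of their targets. Of 227 member tests 9 were called higher and 0 lower, in 3 classes. Over all genes and the 27 classes, 1.58% of tests were called higher and 1.14% lower. In the other 24 classes edgeR called 0 of 201 member tests. Only 5 of the 27 classes had at least 1% of genes called higher. The 0 of 201 is thus near the background and no result about the members. Of these 201 tests 12 had an unadjusted p under 0.05, near the share that this cutoff gives by chance. With 3 MEK1/2 inhibitors against 84 other compounds, Hspb1 rose by 4.00 ± 0.27 (adjusted p = 1.3e-23) and Cryab by 1.32 ± 0.21 (adjusted p = 5.8e-07), beside 11.8% of genes higher. The single Hspb1 values were 1699.8 CPM with Trametinib, 310 with GDC_0623 and 154 with Ro_5126766 (7 counts), all above the median of 36.2; without Trametinib the rise was 2.48 (adjusted p = 7.3e-06) and that of Cryab 0.89 (adjusted p = 0.033). With 3 CDK7 and CDK9 inhibitors (8.47% of genes higher) 5 members were called: Hspb1 (2.47 ± 0.38), Hspa1b (1.57 ± 0.50), Hsp90aa1 (1.22 ± 0.29), Hsph1 (0.60 ± 0.18) and Dnajb1 (0.43 ± 0.14). Without LDC4297 all 5 calls were lost, with Hspb1 at 1.86 (adjusted p = 0.078) and Hsph1 at 0.0094, and without THZ1 those of Hspa1b and Dnajb1 were. CDK9_IN_1 stood at 46.1 CPM for Hspb1, near its plate median of 44.3. With 5 mTOR and PI3K/mTOR inhibitors (9.05% of genes higher) Hsp90aa1 rose by 1.24 ± 0.26 (adjusted p = 0.00021) and Hspa8 by 0.98 ± 0.28 (adjusted p = 0.0066); without BEZ235 the adjusted p were 0.059 and 0.10. Among these 5, PI_103 had 57.9 CPM of Hsp90aa1, below its plate median of 66.0.

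**Figure D4:**
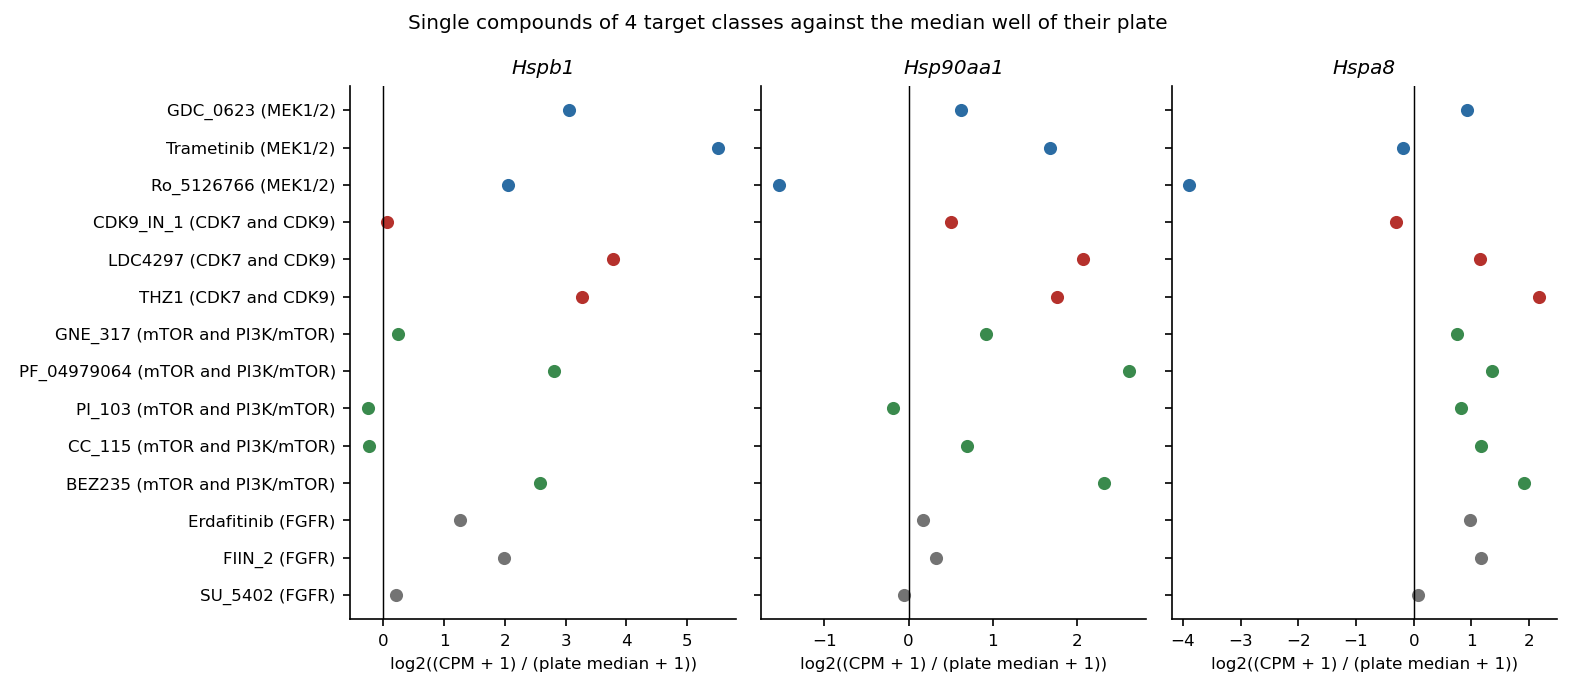
Log2 ratio of CPM + 1 to the plate median + 1 (x axis) for Hspb1, Hsp90aa1 and Hspa8 with single compounds (y axis) of the MEK1/2, CDK7 and CDK9, mTOR and PI3K/mTOR, and FGFR classes, coloured by class; 1 point per compound. Hspb1 is above its plate median with all 3 MEK1/2 compounds, while Hspa8 with Ro_5126766 rests on 0 counts.

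Plate medians (plates 1, 2 and 3) were 36.2, 44.3 and 25.5 CPM for Hspb1, 500, 525 and 440 for Cryab, 96.1, 104 and 93.4 for Dnajb1, 49.2, 54.5 and 74.5 for Hsph1, 66.0, 54.9 and 63.9 for Hsp90aa1, 154, 164 and 201 for Stip1 and 371, 359 and 305 for Hspe1. Hspa8 had 13.8, 33.0 and 20.3 CPM, the highest being 2.39 times the lowest; of 7584 genes 3.49% differed by at least as much. The same ratio was 1.74 for Hspb1 and 1.51 for Hsph1, with a median of 1.20 and a 90th percentile of 1.68 over these genes, and at most 1.31 for the other members with a median above 0. Plate, library and compound set cannot be told apart here.

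Levels of the members were weakly correlated across the screening wells. Spearman's rho within plates 1, 2 and 3 (90, 86 and 46 wells) was 0.53, 0.51 and 0.61 for Hsp90aa1 with its adaptor Stip1, and averaged 0.41 for Hspa1b with Hsp90aa1 and 0.35 for Hspb1 with Hspa8. Only these 3 of 45 pairs were above 0.3 on every plate, and the median of the pair means was 0.22. Hspe1 ran against Hsp90aa1 (mean -0.23) and Stip1 (mean -0.22). Hsp90aa1 followed the mitochondrial share of counts (0.32, 0.41 and 0.41) and Hspe1 ran against it (-0.58, -0.62 and -0.39). Hspe1 (0.45, 0.46 and 0.29) Dnajb1 (0.33, 0.36 and 0.42) and Hspa8 (0.35, 0.50 and 0.38) followed the total count of the well, whose part in the pair values was not tested. The wells of a plate also share 1 library.

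**Figure D5:**
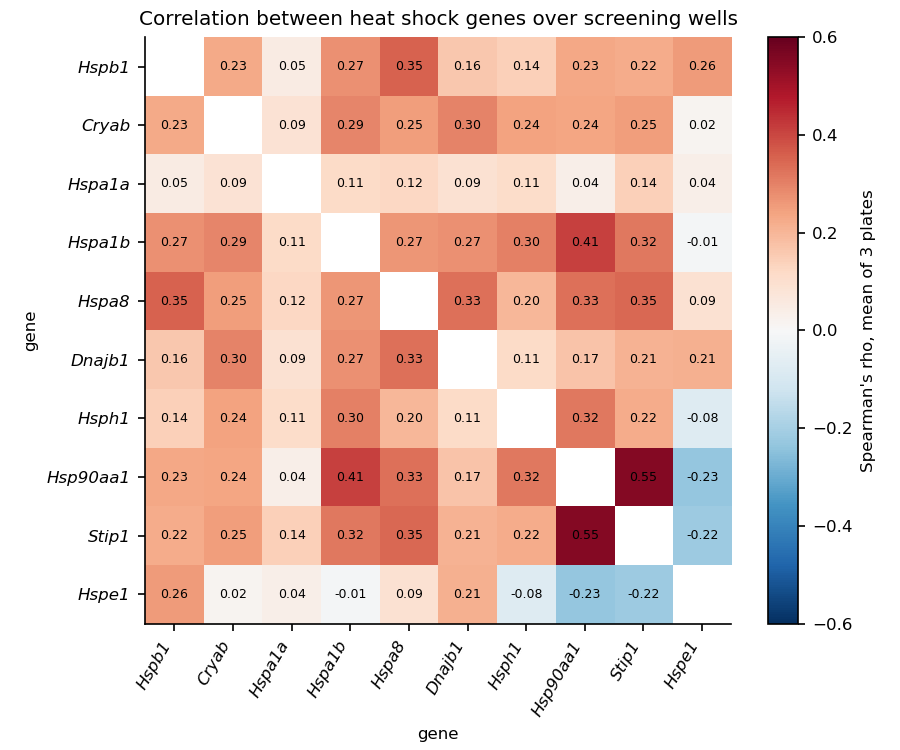
Spearman's rho between each pair of the 10 heat shock genes over screening wells, as the mean of 3 plates; colour and number give rho. Hsp90aa1 with Stip1 is highest at 0.55, and Hspe1 with Hsp90aa1 lowest at -0.23.

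By the same measure over 7256 genes, the genes most like Hsp90aa1 were the mitochondrially encoded mt-Nd2 and mt-Rnr2 (0.70 and 0.68) and Ybx1 (0.68), and those most like Hspe1 were Rpl19, Tceb2 and Rpl13 (0.59, 0.58 and 0.57). For Stip1 they were Mdm2, Tes and Ptms (0.64, 0.64 and 0.63), for Hspa8 Bsg, Ftl1 and Edf1 (0.62, 0.59 and 0.58), and for Dnajb1 Clta, Cox5a and Naca (0.56, 0.54 and 0.54). Hspb1 was most like Jund, Bsg and Atp5o (0.50, 0.49 and 0.48), and Cryab like Lce1g, Tsc22d1 and Twist2 (0.49 each). Hspa1b was most like Ptms, Eif4g1 and Ywhae (0.53, 0.52 and 0.51), Hsph1 like Ywhae, mt-Nd2 and Mlec (0.42, 0.41 and 0.40), and Hspa1a, at 0 in 60, 42 and 21 wells of the 3 plates, like Txndc9, Ldhb and Emc3 (0.29, 0.29 and 0.28). These lists left the members out, and no gene of the chaperone lists was among them.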

How the data were processed

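The deposited table holds whole-number counts per gene and well, as the authors made them; the submitters' processing notes name the aligner STAR and the build mm10. Counting tool, annotation, strand setting and use of molecular identifiers: not given in the sources used here. With the barcode lists, 257 of 274 columns were used, and the other 17 columns of per-well values were not used: 16 could not be given to 1 plate, and 1 compound column of plate 2 was left out because its name reads as a chromosome column in a check of units. Another 4 were exact repeats of a column with the same name, so 253 wells remained. Compound wells under 10% of their plate's median total were not tested. CPM used the total count of the well.

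Changes were tested with edgeR 4.0.16 (R 4.3.3): TMM scaling, a low-count filter (filterByExpr, minimum count 10), the quasi-likelihood test and Benjamini-Hochberg adjustment over all genes of a fit, with a call at an adjusted p under 0.05. The media shared 1 fit of 30 wells. Each compound was compared with all other screening wells of its plate, with the spread estimated over all wells, and p-values were adjusted within the compound. Salt forms entered as 1 compound. Classes were fitted with a plate term. The scripts were tested on simulated data. Alternatives were DESeq2 1.42.0, RLE scaling, no filter, other depth minimums and leaving out wells or compounds.

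The rule for named genes takes all 10 members in every comparison; media comparisons and target classes give the members not called mostly as ranges or counts. Of the other chaperone and oxidative stress lists, mostly up to 4 called genes with the largest change are named per list and comparison. This was done in part only, and these lists are not given for the medium comparisons other than bCFAE over basal and bC8FAE over bCFAE. Compounds are named where at least 3 members were called in 1 direction, or where a well was the highest or lowest of its plate for a member; the other compounds and class members were named after their values were seen. The members and lists were chosen with earlier results of these data known.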

Additional observations from a re-analysis of the deposited data

Results flagged for a closer look

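Within groups of 4 or 5 medium wells, 4 values stood far from the other wells of their group, out of 49 gene and group combinations examined. For normally spread values chance marks about 1 in 20, a rate that does not hold for counts near 0. Hsp90aa1 measured 151 CPM (18 counts) in bC8FAE well 4, against 34.8 to 53.4 CPM in the other bC8FAE wells. That well had 119295 counts, and a mitochondrial share of 1.95% against a group median of 0.940%. Hspa8 measured 5.68 CPM (2 counts) in MEF well 2, against 13.4 to 14.4 CPM in the others. Hspa1a measured 3.77 CPM in bC6FAE[10] well 1 and 3.58 CPM in bCSFAE well 4, 2 counts each, with 0 in the other wells of both groups. Any single well above 0 among wells at 0 is marked by this rule.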

How the results depend on the processing

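Of 36 calls of single members followed through the alternatives, 21 kept their call and direction in all of them. The other 15 lost the call in at least 1, and 0 reversed. Among compound calls, only those of NT157, LDC4297 and Trametinib were followed, and calls with other compounds were not. Plate medians were compared 60 times with their value under a higher depth minimum or TMM scaling. Of these, 0 moved by at least the SD over the screening wells. That SD includes outlying compound wells, so a median could hardly move that far, and the check says little about stability. The number of members called in bC8FAE over bCFAE (2) was 1 with DESeq2 and 1 without a filter, and 1 to 2 when single wells were left out. In bCFAE over basal it was 6 without a filter and 5 under every other alternative run. Leaving out MEF well 3 and bC8FAE well 4, the shallow wells, gave 3 in place of 2 in bC8FAE over bCFAE, and 2 in place of 1 in bC6FAE[2] and in bCLFAE over bCFAE. With single wells left out, the count ranged from 2 to 5 in bC8FAE over MEF (5 without bC8FAE well 4), from 0 to 1 in basal over MEF, in bC6FAE[2] over bCFAE and in bCLFAE over bCFAE, and from 1 to 2 in bC6FAE[10] over bCFAE (2 without bCFAE well 1). In the screen, the 2 lower calls became 1 with a depth minimum of 50% of the plate median, and the 18 higher calls became 11 when p-values were adjusted over all compounds and genes of a plate. The cause of these changes was not tested, except that fewer wells enter some fits. No paired analysis was possible because no label pairs the wells and each plate is 1 sample. Depth limits Hspa1a, Hspa1b and Hspa8 most: at 0 to 7 counts for Hspa1b in the medium wells, only large differences can pass the test.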

Other observations

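The 2 wells named nocell held 4280 and 25308 counts. The first had 1 count of Hsp90aa1 and 3 of Hspe1 and none of the other 8 genes. The second had 1 to 9 counts of 8 of the 10 genes, including 9 of Cryab (356 CPM) and 8 of Stip1 (316 CPM), and 0 of Hspa1a and Hspa1b. Its CPM values lay near those of wells with cells. Its total was below that of every tested well, the lowest being Ro_5126766 with 45416 counts. The compound wells left out for low depth held fewer counts than this second well, at most 5774 (FLLL32).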
